A study of Mus musculus with 34 samples.

Results

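The claudins and their partners at the tight junction were examined in mouse kidney as a set of 33 genes. The set was given as a list of gene symbols, and all 33 symbols were found among the 23509 genes of the count tables. It held 18 claudins, which were read by the nephron segment in which each is known to act, and 15 genes for other junction proteins. Counts for 32 members were high enough to test. Claudin 18 (*Cldn18*) was the exception, with 0 to 3 reads in a UNT library, no read in any PBS library and 0 to 2 in an RGLS4326 library.

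Polyadenylated RNA of 34 mouse kidneys was sequenced at postnatal day (P) 28, and all mice had the C57BL6 background strain. *Pkd2*-KO mice received PBS (n = 11) or RGLS4326 at 20 mg per kg body weight (n = 11), in both cases subcutaneously on P10, P11, P12 and P19, and non-transgenic, untreated mice of wildtype genotype (UNT, n = 12) were the reference. The genotype of both dosed groups was spelled "Pdk2KO" in the sample labels and *Pkd2*-KO in the design text, so the PBS and RGLS4326 mice shared the deletion and differed in the agent. The study names the model as floxed *Pkd2* alleles combined with a *Pkhd1* Cre. As background, *Pkhd1* is active mainly in tubule and collecting duct epithelium, so the deletion is not expected in every kidney cell. PBS vs UNT therefore addressed how tight junction transcripts differ in polycystic kidneys. RGLS4326 vs PBS addressed how they differ after dosing with RGLS4326, an inhibitor of the microRNA miR-17. No control oligonucleotide was among the 34 samples, so inhibition of miR-17 and other effects of an oligonucleotide cannot be told apart. RGLS4326 is a short, chemically modified oligonucleotide that pairs with the seed of miR-17.

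Tight junctions seal the space between neighbouring epithelial or endothelial cells near their apical side. Claudins are four-pass membrane proteins that form the strands of the junction, and the claudins that a cell makes decide whether the strand acts as a barrier or as a selective pore. Each nephron segment has its own claudins, from leaky pore formers in the proximal tubule to barrier claudins in the collecting duct. Occludin and its MARVEL relatives sit in the same strands, the JAM proteins are adhesion molecules of the immunoglobulin family, and scaffolds in the cytoplasm tie the strands to actin and to the Par polarity complex.

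Reads assigned to genes ranged from 17603122 to 54981992 per library, and the unit of level is CPM, which scales each count by the TMM-adjusted size of its library. *Pkd2* itself was at 220 to 338 CPM in UNT, 98 to 215 in PBS and 170 to 237 in RGLS4326 kidneys, and its log2 fold change in PBS vs UNT was -0.78 (standard error 0.09, edgeR adjusted p = 1.4e-09) and in RGLS4326 vs PBS 0.39 (standard error 0.09, edgeR adjusted p = 0.00439). The share of all reads that counting assigned to no gene is called the no-gene share here. The gene annotation and strand setting were not given, so such reads may lie inside or outside genes. The no-gene share was 9.84 to 11.3% in UNT libraries, 5.18 to 9.0% in PBS libraries and 4.94 to 12.0% in RGLS4326 libraries. RGLS4326 mice 5, 6, 7 and 11 lay at 11.3 to 12.0%. Alignments entered as not unique were 22.8 to 25.7% of the table totals in UNT, 14.8 to 19.4% in PBS and 14.8 to 19.1% in RGLS4326 libraries. UNT libraries thus stood apart from both other groups in this share, whereas in the no-gene share they stood apart from PBS libraries only. Entries ambiguous between genes were 0.323 to 0.488% over all libraries. The tables fell into 3 sets in which their numbering restarts, and all 3 RGLS4326 libraries of set 2 were among those 4. PBS mouse 9 stood apart, with a correlation to its group's median profile of 0.977, against 0.988 or more in every other library. Nothing in the labels paired mice of different groups, and each library was 1 mouse.

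Because RGLS4326 acts on the miR-17 family, members whose messages carry a match to its seed are shown first. The mature mouse sequences of the family share bases 2 to 8, which are in capitals (RefSeq, GRCm38.p6).
mmu-miR-17-5p: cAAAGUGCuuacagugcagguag
mmu-miR-20a-5p: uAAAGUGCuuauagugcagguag
mmu-miR-93-5p: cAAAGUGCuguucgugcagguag
mmu-miR-106b-5p: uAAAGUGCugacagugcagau

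The longest annotated 3′ untranslated region (UTR) of each gene was searched on the message strand, in GENCODE M21 on GRCm38. The search was for GCACTTT (7mer-m8), for CACTTTA (7mer-A1) and for their union GCACTTTA (8mer). Of the 32 tested members 7 had a match (21.9%), beside 22.0% of 14189 tested genes with a 3′UTR, and 2 had an 8mer (6.25%), beside 4.26%. The matches of *Jam2* (chr16:84823309-84823316, plus strand) and *Magi3* (chr3:104015872-104015879, minus strand) were 8mers, and those of *Pard6b* (chr2:168099916-168099922, plus strand), *Cldn5* (chr16:18777844-18777850, plus strand), *Cldn1* (chr16:26358272-26358278, minus strand) and *Cldn2* (chrX:139809717-139809723, plus strand) were 7-base matches. All 6 lie in the exonic 3′UTR and are printed 5′ to 3′ in DNA letters, with the match in capitals and 11 bases on each side.
Jam2 8mer: tctaaggatttGCACTTTAtattttctttc
Magi3 8mer: agaaaagaaaaGCACTTTAaatggaagcca
Pard6b 7mer-m8: gatatagatgtGCACTTTttattcaaaag
Cldn5 7mer-m8: acagactacagGCACTTTtaagaacttga
Cldn1 7mer-m8: ggacggtctttGCACTTTggtctggagct
Cldn2 7mer-A1: cccatctctgcCACTTTAggctatgccca

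*Cldn1* and *Jam2* had a further 7-base match, *Magi1* had a pair of them, and *Cldn18*, which was not tested, had 1. The level of these genes after RGLS4326 is given with the treatment results below. A match is a description of the sequence and was not tested as a binding site.

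Polycystic kidneys had a different claudin make-up from UNT kidneys. In PBS vs UNT, 31 of the 32 tested members passed the test, 22 higher and 9 lower, where passing means a Benjamini-Hochberg adjusted p under 0.05 in edgeR's quasi-likelihood test over 15644 genes. Changes were common in these kidneys, since 82.1% of all tested genes passed, 43.1% higher and 39.0% lower, so the count alone does not set the members apart. The median log2 fold change was 0.49 over the members and 0.04 over all genes tested. For 18 members the lowest mouse of one group lay beyond the highest mouse of the other, 11 with PBS above UNT and 7 with PBS below, and this held for 42.5% of all tested genes. Among the 17 tested claudins 11 were higher and 6 lower in PBS kidneys, of which *Cldn8* turned to a log2 fold change of 0.04 when libraries were scaled by their totals alone. That scaling moved the median of all genes by 0.33 on the log2 scale and the share of higher calls among all called genes from 52.5% to 68.6%, and it gave 23 higher and 7 lower members. In bulk RNA, fewer cells of a type and less RNA per cell cannot be told apart.

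**Figure D1:**
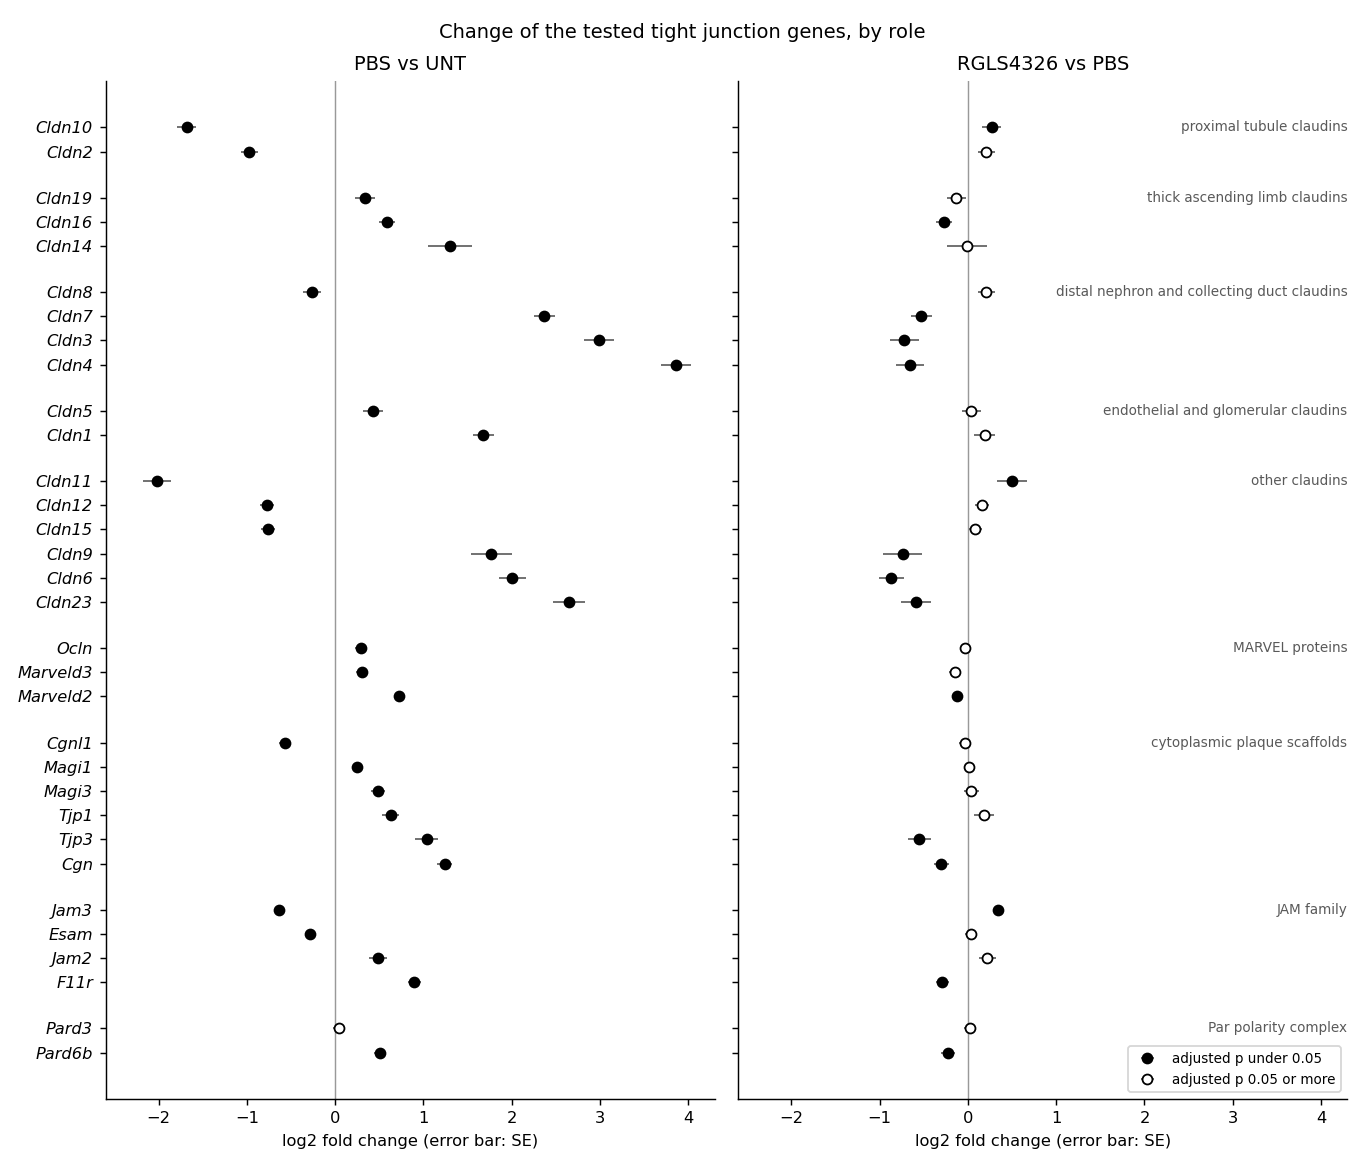
Log2 fold change with its standard error (horizontal axis) of the 32 tested members, listed by role, in PBS vs UNT (left) and RGLS4326 vs PBS (right); filled points passed an adjusted p of 0.05. *Cldn4*, *Cldn3* and *Cldn23* lie farthest to the right in PBS vs UNT, at 3.86, 2.99 and 2.65, and the differences in RGLS4326 vs PBS are smaller, between -0.87 and 0.50.

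Both claudins of the proximal tubule were lower in polycystic kidneys. *Cldn2* (chrX:139800828-139811386), which forms a pore for sodium ions and water, was at 547 to 794 CPM in UNT mice (median 636), 230 to 490 in PBS mice (median 315) and 309 to 445 in RGLS4326 mice (median 380). Every PBS mouse was below every UNT mouse, and the log2 fold change was -0.97 (standard error 0.10, edgeR adjusted p = 1.08e-10). *Cldn10* (chr14:118787908-118875489) encodes an anion pore of the proximal tubule and, from another first exon, a cation pore of the thick ascending limb, and the count of the gene pools both forms. It stood at 184 to 234 CPM in UNT (median 197), 38.5 to 87.9 in PBS (median 63.9) and 60.5 to 94.0 in RGLS4326 kidneys (median 75.2). The groups of UNT and PBS mice did not overlap, with a log2 fold change of -1.68 (standard error 0.11, edgeR adjusted p = 1.42e-16), or a level 3.21-fold lower.

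Markers of the proximal tubule fell further than *Cldn2* did. All 6 marker genes listed for this segment were lower in PBS kidneys, with log2 fold changes from -2.87 (*Slc34a1*, the phosphate transporter) to -2.13 (*Cubn*, the receptor cubilin), and their summed level was 8592 to 12311 CPM in UNT, 724 to 2606 in PBS and 1752 to 2925 in RGLS4326 mice. On the log2(CPM + 1) scale *Cldn2* minus the mean of these markers was -0.76 ± 0.18 (SD, n = 12) in UNT and 0.94 ± 0.38 (SD, n = 11) in PBS kidneys, and the highest UNT mouse at -0.44 was below the lowest PBS mouse at 0.58. Relative to this segment's markers *Cldn2* was thus higher in PBS than in UNT kidneys, and *Cldn10* was as well, at -2.43 ± 0.23 in UNT and -1.46 ± 0.36 in PBS mice. *Cldn10* is also made in the thick ascending limb, and against that segment's markers it was at -2.25 ± 0.19 in UNT and -2.00 ± 0.26 in PBS mice, with ranges of -2.65 to -2.00 and -2.24 to -1.35 that overlapped.

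The claudins of the thick ascending limb were higher in PBS kidneys although the markers of that segment were lower. *Cldn16* (chr16:26463135-26482765), which with *Cldn19* forms the pore for magnesium and calcium ions, was at 11.7 to 17.5 CPM in UNT (median 14.9), 17.1 to 30.3 in PBS (median 23.2) and 14.8 to 22.1 in RGLS4326 kidneys (median 18.9). The UNT and PBS ranges overlapped only at their edges, and the log2 fold change was 0.59 (standard error 0.09, edgeR adjusted p = 1.39e-07). *Cldn19* (chr4:119255414-119262438) was at 54.0 to 86.6 CPM in UNT (median 73.7), 72.1 to 141 in PBS (median 91.8) and 64.7 to 124 in RGLS4326 kidneys (median 79.5). Its ranges overlapped widely, and the log2 fold change was 0.34 (standard error 0.11, edgeR adjusted p = 0.00349). An antisense gene, *Gm12927*, overlaps 90 bases of *Cldn19* exons, so a part of its reads may belong to the neighbour.

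*Cldn14*, which blocks the pore of *Cldn16* and *Cldn19*, was near the limit of detection, with 0 to 18 reads in a UNT library and 14 to 33 in a PBS library. Its level was 0 to 0.505 CPM in UNT (median 0.228), 0.407 to 0.845 in PBS (median 0.566) and 0.322 to 0.951 in RGLS4326 kidneys (median 0.554). The ranges overlapped, and the log2 fold change in PBS vs UNT was 1.30 (standard error 0.25, edgeR adjusted p = 1.04e-05). All 5 thick ascending limb markers were lower in PBS kidneys, from -4.43 for *Egf* to -0.59 for *Kcnj1*, and their sum was 8521 to 14861 CPM in UNT, 2459 to 4939 in PBS and 3925 to 5618 in RGLS4326 mice. *Cldn16* minus the mean of these markers, in log2(CPM + 1), moved from -5.91 ± 0.21 (SD, n = 12) in UNT to -3.41 ± 0.63 (SD, n = 11) in PBS kidneys, and *Cldn19* minus the same mean from -3.70 ± 0.25 to -1.42 ± 0.46. For both claudins all PBS mice were above all UNT mice on this scale.

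Of the 4 claudins of the distal nephron and collecting duct, 3 were among the 4 members with the largest rises in PBS vs UNT. *Cldn4* (chr5:134945119-134946934), a barrier claudin of the collecting duct that also takes part in chloride passage, was at 17.3 to 30.8 CPM in UNT (median 23.5), 221 to 513 in PBS (median 305) and 131 to 347 in RGLS4326 kidneys (median 214). The lowest PBS mouse was far above the highest UNT mouse, and the log2 fold change of 3.86 (standard error 0.17, edgeR adjusted p = 9.66e-21) corresponds to a level 14.5-fold higher. *Cldn3* (chr5:134986214-134987472), its neighbour on the same chromosome and likewise a barrier former, was at 5.08 to 11.8 CPM in UNT (median 9.92), 48.4 to 115 in PBS (median 66.1) and 29.9 to 70.0 in RGLS4326 kidneys (median 42.8). These UNT and PBS groups did not overlap either, with a log2 fold change of 2.99 (standard error 0.17, edgeR adjusted p = 4.25e-18), and 40 bases of its exon are shared with the antisense gene *Wbscr25*.

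*Cldn7* (chr11:69964779-69967885), which in epithelia is found along the whole side of the cell as well as at the junction, was at 15.9 to 29.1 CPM in UNT (median 23.2), 82.6 to 152 in PBS (median 110.1) and 61.0 to 106 in RGLS4326 kidneys (median 77.4). It rose by a log2 fold change of 2.37 in PBS vs UNT (standard error 0.12, edgeR adjusted p = 1.77e-19) with no overlap of the groups. *Cldn8*, the partner of *Cldn4* in collecting duct strands, did not share this rise. It was at 80.0 to 125 CPM in UNT (median 98.2), 56.4 to 99.5 in PBS (median 87.1) and 71.7 to 131 in RGLS4326 kidneys (median 91.3), with overlapping groups and a log2 fold change in PBS vs UNT of -0.26 (standard error 0.10, edgeR adjusted p = 0.014) that turned to 0.04 with library totals as the scaling. The call on *Cldn8* was lost within each library set, where the values were -0.09, -0.30 and -0.44.

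Markers of principal cells, the collecting duct cells that reabsorb sodium and water, rose less than these 3 claudins. All 5 were higher in PBS kidneys, with log2 fold changes from 0.47 (*Aqp3*) to 1.51 (*Avpr2*, the vasopressin receptor), and their sum was 529 to 874 CPM in UNT, 842 to 2270 in PBS and 454 to 1989 in RGLS4326 mice. In log2(CPM + 1), *Cldn4* minus the mean of these markers was -2.10 ± 0.15 (SD, n = 12) in UNT and 0.62 ± 0.55 (SD, n = 11) in PBS kidneys, while *Cldn8* minus the same mean was -0.07 ± 0.31 and -1.37 ± 0.58. *Cldn4* and *Cldn8*, read against the same markers, thus had PBS means on opposite sides of their UNT means. The ranges of *Cldn8* on this scale overlapped, at -0.55 to 0.53 in UNT and -2.41 to -0.43 in PBS mice. Beside the fall in *Cldn8*, whose direction turned under scaling by library totals, markers of the distal convoluted tubule were lower in 4 of 4 genes and those of intercalated cells, the acid-handling cells of the collecting duct, in 4 of 5, with 1 higher and a median of -0.96. Other lists moved with *Cldn3*, *Cldn4* and *Cldn7* as well. Markers of urothelium, the lining of the renal pelvis that also makes barrier claudins, were higher in 4 of 4 genes and summed to 24.5 to 41.8 CPM in UNT, 43.4 to 142 in PBS and 34.3 to 66.0 in RGLS4326 mice, and genes made throughout the tubule epithelium (*Epcam*, *Cdh16*, *Cdh1* and the keratins *Krt8* and *Krt18*) were higher in 5 of 5 and summed to 1941 to 2276 CPM in UNT and 3039 to 4786 in PBS mice. Markers of injured tubules were higher in 4 of 4 genes, and their sum was 25.4 to 40.3 CPM in UNT and 869 to 1973 in PBS mice. None of these lists had a gene at 0 in all libraries, and their part in the rise of the claudins was not tested.

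**Figure D2:**
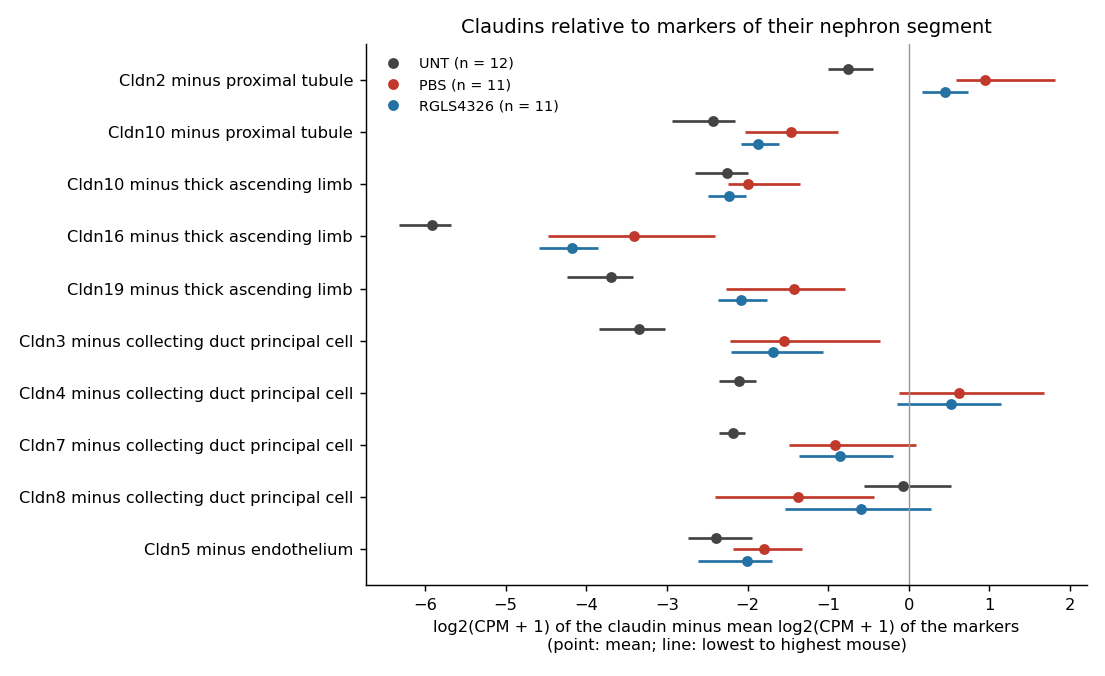
Level of a claudin minus the mean level of markers of its segment, both in log2(CPM + 1) (horizontal axis), as the group mean (point) and the lowest to highest mouse (line) for UNT (n = 12), PBS (n = 11) and RGLS4326 (n = 11). *Cldn16* and *Cldn19* lie about as far right of their UNT values as *Cldn4* does, by 2.51, 2.28 and 2.72 in PBS kidneys. The log2 fold changes of these claudins themselves were 0.59, 0.34 and 3.86. The mean of the thick ascending limb markers fell from 9.90 in UNT to 7.94 in PBS kidneys. *Cldn8* lies to the left of its UNT value by -1.30.

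*Cldn1* and *Cldn5* mark cells outside the tubule in the healthy kidney. *Cldn1* (chr16:26356642-26371841), a barrier claudin known from parietal cells of Bowman's capsule, was at 22.4 to 46.7 CPM in UNT (median 29.4), 75.9 to 129 in PBS (median 94.8) and 89.7 to 138 in RGLS4326 kidneys (median 119). The PBS and UNT groups did not overlap, with a log2 fold change of 1.68 (standard error 0.12, edgeR adjusted p = 1.37e-15). *Cldn5*, the claudin of endothelial cells, was at 10.9 to 19.6 CPM in UNT (median 16.6), 18.1 to 27.7 in PBS (median 21.5) and 12.98 to 29.1 in RGLS4326 kidneys (median 22.0), with a log2 fold change in PBS vs UNT of 0.43 (standard error 0.11, edgeR adjusted p = 0.00041) and overlapping groups. The call on *Cldn5* was lost within library set 2, where it was 0.14, and with the no-gene share as a covariate, where it was 0.07. The 5 endothelial markers were mixed, 2 higher and 3 lower, and their sum was 418 to 524 CPM in UNT and 340 to 489 in PBS mice.

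The other claudins split evenly. *Cldn6* and *Cldn9*, known from the fetal and newborn kidney, were higher in PBS kidneys, as was *Cldn23*. *Cldn6* was at 0.862 to 2.37 CPM in UNT (median 1.61), 3.71 to 8.87 in PBS (median 6.67) and 2.63 to 5.27 in RGLS4326 mice (median 3.44), a log2 fold change in PBS vs UNT of 2.01 (standard error 0.15, edgeR adjusted p = 5.61e-15) with no overlap. *Cldn9* was rarer, with 4 to 19 reads in a UNT library and 20 to 67 in a PBS library. Its level was 0.145 to 0.479 CPM in UNT (median 0.210), 0.479 to 1.38 in PBS (median 0.946) and 0.2501 to 0.776 in RGLS4326 mice (median 0.549), and the log2 fold change was 1.77 (standard error 0.23, edgeR adjusted p = 7.56e-09). *Cldn23* was at 0.482 to 1.44 CPM in UNT (median 0.941), 3.61 to 9.49 in PBS (median 5.63) and 2.42 to 5.75 in RGLS4326 mice (median 4.20), a log2 fold change of 2.65 (standard error 0.18, edgeR adjusted p = 7.74e-16). The UNT and PBS groups of *Cldn23* did not overlap, and those of *Cldn9* overlapped only at their edges.

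*Cldn11*, best known from myelin and from the testis, had the largest fall of all members. It was at 4.84 to 10.4 CPM in UNT (median 7.38), 1.05 to 2.78 in PBS (median 1.57) and 1.43 to 3.41 in RGLS4326 kidneys (median 2.42), and every PBS mouse was below every UNT mouse, with a log2 fold change of -2.02 (standard error 0.16, edgeR adjusted p = 1.03e-13). *Cldn12* and *Cldn15*, the latter a pore former of the intestine, also fell without overlap, by 0.77 and 0.76 on the log2 scale (standard error 0.08 for each, edgeR adjusted p = 1.07e-10 and 1.92e-10).

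**Figure D3:**
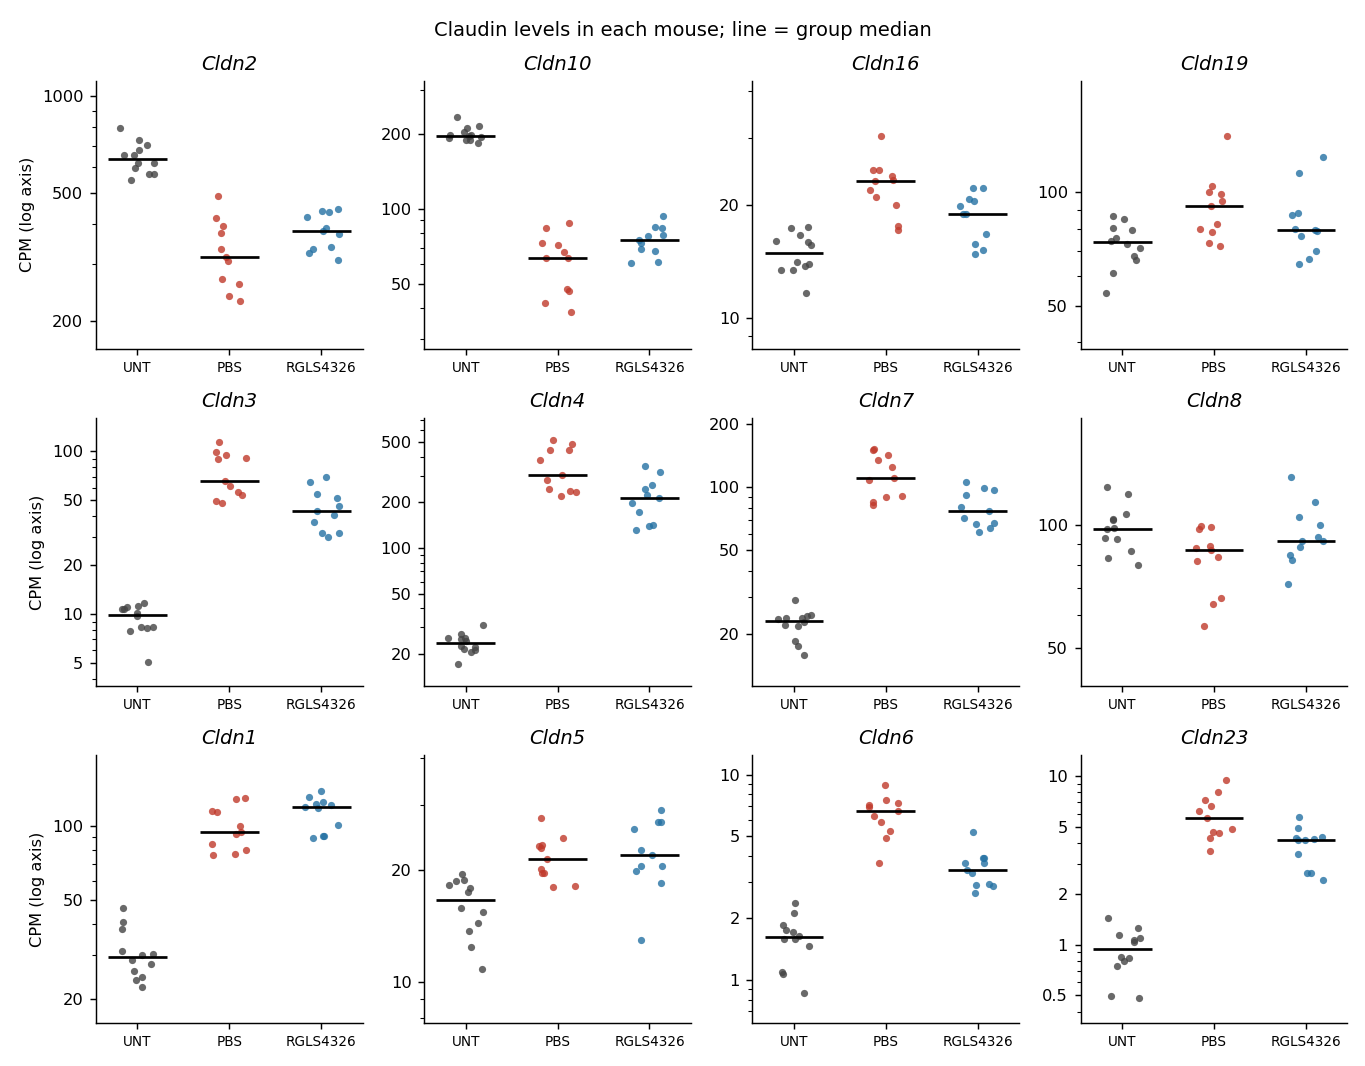
Level of 12 claudins in each mouse in CPM on a log axis, with 1 point per mouse and a line at the group median, for UNT (n = 12), PBS (n = 11) and RGLS4326 (n = 11). *Cldn4* rises from a median of 23.5 in UNT to 305 in PBS and lies at 214 in RGLS4326 mice, while *Cldn2* and *Cldn10* fall from 636 to 315 and from 197 to 63.9.

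Levels of different claudins can be compared only per length of transcript, here as CPM per kb of the gene's merged exons. On that scale the summed level of the 18 claudins was 443 ± 26.9 (SD, n = 12) in UNT, 579 ± 58.9 (SD, n = 11) in PBS and 491 ± 74.1 (SD, n = 11) in RGLS4326 kidneys, and the order of the genes changed. *Cldn2* led in UNT kidneys with 43.7% ± 3.03 of the sum, followed by *Cldn10* with 17.5% ± 1.02 and *Cldn8* with 9.47% ± 1.01. In PBS kidneys *Cldn4* led with 32.1% ± 7.26, up from 2.95% ± 0.452, and *Cldn2* came next with 17.6% ± 5.60. *Cldn3* and *Cldn7* held 10.1% ± 2.23 and 10.1% ± 1.45 there and did not differ beyond their spread, while *Cldn10* was down to 4.27% ± 1.43. The share of *Cldn2* was 39.5 to 48.7% in UNT mice and 10.7 to 27.3% in PBS mice, and that of *Cldn4* was 1.89 to 3.52% and 22.8 to 42.9%, so neither gene's groups overlapped. RGLS4326 kidneys lay between, with *Cldn4* at 23.8% ± 4.53 and *Cldn2* at 23.5% ± 2.35, shares that did not differ beyond their spread. The shares of *Cldn16* and *Cldn19* were close in UNT and PBS mice, at 2.88% ± 0.381 and 3.33% ± 0.517 for *Cldn16* and at 3.88% ± 0.557 and 3.81% ± 1.03 for *Cldn19*.

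**Figure D4:**
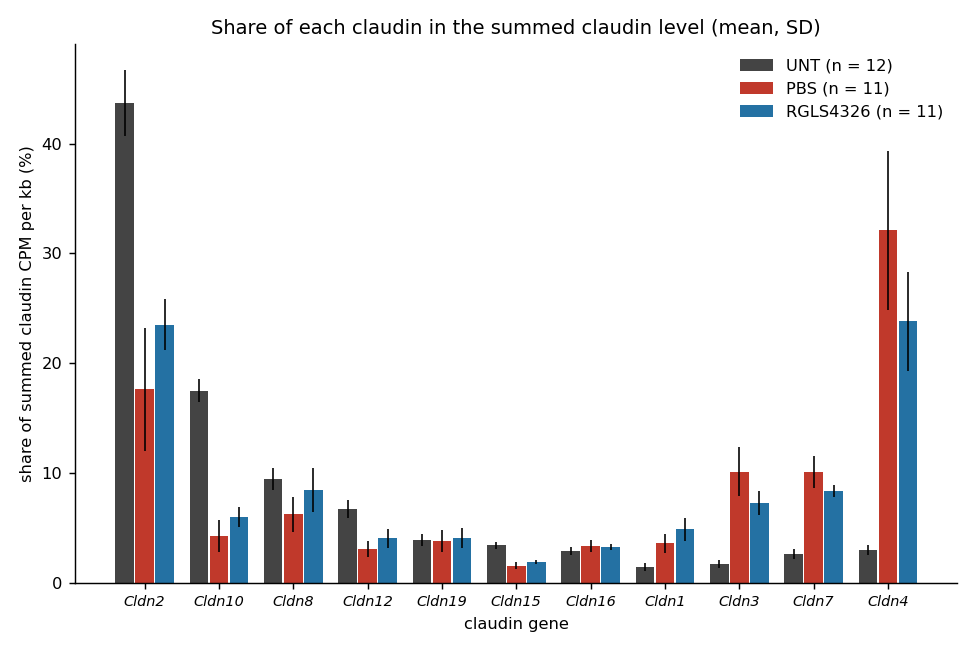
Share of the summed claudin level (CPM per kb, vertical axis in percent) held by 11 claudins in UNT (n = 12), PBS (n = 11) and RGLS4326 (n = 11) kidneys; bars are means and error bars are SD. The bar of *Cldn2* is highest in UNT at 43.7%, the bar of *Cldn4* is highest in PBS at 32.1%, and the bars of both are alike in RGLS4326 kidneys, at 23.5% and 23.8%.

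Among the 15 members that are not claudins the changes were smaller, with 11 higher, 3 lower and 1 not called in PBS vs UNT, beside 82.1% of all tested genes called, and *Esam* among the 3 turned to 0.01 under scaling by library totals. The MARVEL proteins, which are the occludin relatives of the strand, were all higher, *Marveld2* (tricellulin, which seals the corners where cells meet) by 0.73 (standard error 0.05, edgeR adjusted p = 1.88e-16), and *Marveld3* and *Ocln* by 0.30 and 0.29. *Marveld2* was at 19.0 to 24.3 CPM in UNT mice and at 32.9 to 39.7 in PBS mice, without overlap, and the spread within PBS was small, with a coefficient of variation of 5.81%. *Ocln* itself was at 35.3 to 53.3 and 43.4 to 58.7 CPM, so its groups overlapped.

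The scaffolds under the membrane did not move as 1 group. *Cgn* (chr3:94760069-94786492), or cingulin, which links the junction to actin and myosin, was at 26.4 to 35.8 CPM in UNT (median 31.5), 63.7 to 95.5 in PBS (median 69.2) and 46.5 to 68.5 in RGLS4326 kidneys (median 60.5), a log2 fold change in PBS vs UNT of 1.24 (standard error 0.08, edgeR adjusted p = 6.2e-17). Its paralog *Cgnl1* went the other way and stayed the more abundant, at 511 to 739 CPM in UNT and 338 to 448 in PBS mice, and fell by 0.57 on the log2 scale (standard error 0.06, edgeR adjusted p = 5.41e-10). For both genes the PBS and UNT groups did not overlap. Per kb, *Cgnl1* fell from 74.8 to 50.4 CPM while *Cgn* rose from 5.26 to 12.4.

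*Tjp3*, which encodes the zonula occludens scaffold ZO-3, was at 11.5 to 29.4 CPM in UNT (median 23.5), 34.2 to 64.8 in PBS (median 49.1) and 25.2 to 47.1 in RGLS4326 mice (median 31.4). It rose by 1.04 in PBS vs UNT (standard error 0.13, edgeR adjusted p = 3.47e-09) with no overlap, and 40 bases of its exons are shared with *Apba3* on the opposite strand. *Tjp1* (ZO-1) rose by 0.63 (standard error 0.10, edgeR adjusted p = 1.21e-06) with overlap, because PBS mouse 9 had 79.1 CPM where the other PBS mice had 164 to 225. The same mouse was lowest for *Magi3*, at 31.4 CPM against 50.3 to 70.2. *Magi3* and *Magi1* rose by 0.49 and 0.25.

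In the JAM family *F11r* (JAM-A, of epithelia, platelets and leukocytes) rose by 0.90 (standard error 0.07, edgeR adjusted p = 1.81e-14), and was at 113 to 137 CPM in UNT mice and 197 to 275 in PBS mice. The 5 leukocyte markers were all higher as well, with sums of 83.9 to 135 CPM in UNT and 537 to 1670 in PBS mice, and their part in the rise of *F11r* was not tested. *Jam2* rose by 0.49 (standard error 0.10, edgeR adjusted p = 2.68e-05) with overlapping groups. *Jam3* and *Esam*, an adhesion molecule of endothelium, fell by 0.63 and 0.28. *Jam3* (chr9:27097384-27155421) was at 36.3 to 42.5 CPM in UNT mice (median 38.6), 20.6 to 30.04 in PBS mice (median 24.9) and 29.1 to 33.97 in RGLS4326 mice (median 31.8), so that all 11 PBS mice were below all 12 UNT mice (standard error 0.05, edgeR adjusted p = 5.41e-13). Its exons overlap 1159 bases of *Gm48796* on the opposite strand, and reads of the pair cannot be told apart where strand was not used in counting, a setting not given in the sources used here. Of the Par complex, which sets cell polarity, *Pard6b* rose by 0.51 (standard error 0.07, edgeR adjusted p = 7.9e-08), and *Pard3* had a log2 fold change of 0.04 (standard error 0.06, edgeR adjusted p = 0.549).

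A list of 33 further tight junction genes was written from general knowledge, with earlier results of these data known. It was read beside the members, and 27 of its genes could be tested. In PBS vs UNT 23 passed, 18 higher and 5 lower, beside 82.1% of all tested genes, 43.1% higher and 39.0% lower, with a median log2 fold change of 0.28. Among the largest rises were those of *Lsr* (angulin-1, of the corners between cells) and *Cxadr* (an adhesion protein of the JAM kind), at 1.34 and 1.22, and the 3 largest falls those of *Wnk4* (a kinase of the distal tubule that phosphorylates claudins), *Mpp5* (PALS1, a polarity scaffold) and *Prkcz* (an atypical protein kinase C), at -1.85, -0.73 and -0.69. *Lsr* went from 38.2 ± 3.18 CPM (SD, n = 12) to 96.8 ± 13.3 (SD, n = 11) and *Wnk4* from 316 ± 27.1 to 87.7 ± 8.96, while markers of the distal convoluted tubule, where *Wnk4* acts, were lower in 4 of 4 genes and summed to 2018 to 2756 CPM in UNT and 301 to 515 in PBS mice. Exons of *Lsr*, *Cxadr* and *Wnk4* overlap another annotated gene, so their counts may include reads of a neighbour or lack reads shared with it.

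Within library sets the direction of the larger differences was the same. In sets 1, 2 and 3 the log2 fold change in PBS vs UNT was 4.01, 3.49 and 4.02 for *Cldn4*, 3.09, 2.52 and 3.33 for *Cldn3*, -1.91, -1.67 and -1.61 for *Cldn10*, and -1.08, -0.67 and -1.27 for *Cldn2*. UNT and PBS libraries did not overlap in the no-gene share, and with that share as a covariate 27 members passed, beside 70.1% of all tested genes, where *Cldn19* at 0.20 and *Marveld3* at 0.12 were lost beside *Cldn5* and *Cldn8*. Some smaller differences were not called within a set of 3 or 4 mice per group. *Cldn16* was at 0.26 in set 2 and *Cldn19* at 0.21 and 0.14 in sets 1 and 2 without a call, and in set 3 the calls on *Ocln* (0.14), *Tjp1* (0.33), *Jam2* (0.31), *Marveld3* (0.18), *Magi1* (0.16), *Magi3* (0.25) and *Esam* (-0.12) were lost.

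Differences between RGLS4326-treated and PBS-treated kidneys were modest, and most of those that passed were falls. In RGLS4326 vs PBS 15 of the 32 tested members passed, 3 higher and 12 lower, beside 33.8% of all tested genes, with 15.3% higher and 18.5% lower. The median log2 fold change was -0.02 over the members and 0.00 over all genes. A fall of 0.5 or more on the log2 scale was found in 7 called members, beside 3.42% of all tested genes. A rise of that size was found in 0 members, beside 4.62% of all tested genes, and *Cldn11*, at 0.495, lay just under it. No member had groups that did not overlap, a rare event in this comparison (0.0639% of all tested genes). The same PBS mice enter both comparisons, which are therefore not independent, and the values of both are only set side by side.

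The members that fell by 0.5 or more after treatment were *Cldn6* (-0.87, SE 0.14, edgeR adjusted p = 0.000395), *Cldn9* (-0.74, SE 0.22, adjusted p = 0.0127), *Cldn3* (-0.72, SE 0.16, adjusted p = 0.00306), *Cldn4* (-0.66, SE 0.16, adjusted p = 0.00486), *Cldn23* (-0.59, SE 0.17, adjusted p = 0.0101), *Tjp3* (-0.55, SE 0.13, adjusted p = 0.00437) and *Cldn7* (-0.53, SE 0.12, adjusted p = 0.003). Their log2 fold changes in PBS vs UNT were 2.01, 1.77, 2.99, 3.86, 2.65, 1.04 and 2.37 in the same order. *Cgn*, *F11r*, *Cldn16*, *Pard6b* and *Marveld2* were also lower, by 0.30, 0.29, 0.27, 0.23 and 0.12. *Cldn4* remained above the UNT level in every RGLS4326 mouse, the lowest of which had 131 CPM beside 30.8 in the highest UNT mouse, and so did *Cldn6*, with 2.63 beside 2.37. For *Cldn9* and *Tjp3* the RGLS4326 and UNT ranges overlapped.

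A rise after treatment was found in 3 members, *Jam3*, *Cldn11* and *Cldn10*, whose log2 fold changes in PBS vs UNT were -0.63, -2.02 and -1.68. *Jam3* rose by 0.34 (standard error 0.06, edgeR adjusted p = 0.000395), *Cldn11* by 0.50 (standard error 0.17, adjusted p = 0.0235) and *Cldn10* by 0.27 (standard error 0.11, adjusted p = 0.0493). For *Jam3* the groups overlapped only at their edges, since the lowest RGLS4326 mouse was at 29.1 CPM and the highest PBS mouse at 30.04. *Cldn2*, with a log2 fold change of 0.21 (standard error 0.10, edgeR adjusted p = 0.115), and *Cldn8*, with 0.21 (standard error 0.10, adjusted p = 0.0922), did not pass. *Cldn1* was not lower after treatment, at 0.19 (standard error 0.12, adjusted p = 0.187), beside 1.68 in PBS vs UNT. Without PBS mouse 9, 12 members passed, beside 26.0% of all tested genes, and *Cldn10*, *Cldn16* and *Marveld2* were lost, with adjusted p of 0.0558, 0.0577 and 0.0697. *Cldn10* also missed the threshold with RLE size factors (edgeR adjusted p = 0.0539), without the filter on low counts (0.0548) and with only the PBS and RGLS4326 mice fitted (0.105). *Marveld2*, at -0.12, missed it with library totals (edgeR adjusted p = 0.0834), without the filter (0.0938), with only those mice (0.055) and with library set as a factor (0.0504).

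The treatment calls moved with the 4 RGLS4326 libraries that had the high no-gene share. In mice 5, 6, 7 and 11 *Cldn4* was at 131 to 173 CPM, and in the other 7 RGLS4326 mice, whose share of 4.94 to 8.92% was like that of PBS mice, it was at 198 to 347, beside 221 to 513 in PBS mice. *Cldn3* was at 29.9 to 37.1 CPM in those 4 mice and 40.8 to 70.0 in the other 7. *Cldn6* and *Jam3* differed little along this line, at 2.63 to 3.91 and 2.85 to 5.27 CPM for *Cldn6* and at 29.1 to 33.97 and 30.4 to 33.6 for *Jam3*.

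**Figure D5:**
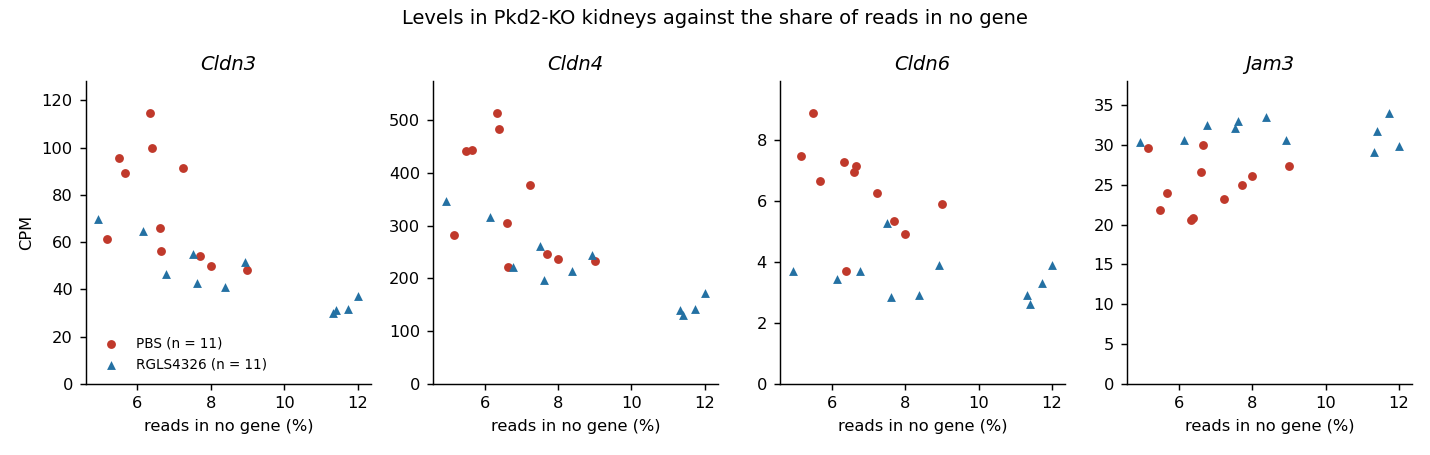
Level in CPM (vertical axis) of *Cldn3*, *Cldn4*, *Cldn6* and *Jam3* against the percent of reads in no gene (horizontal axis) in each PBS (circles, n = 11) and RGLS4326 (triangles, n = 11) mouse. The 4 RGLS4326 mice at 11.3 to 12.0% have the lowest *Cldn4*, 131 to 173 CPM, while *Jam3* is at 29.1 to 33.97 in them and at 30.4 to 33.6 in the other 7.

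Without those 4 libraries 2 members passed in RGLS4326 vs PBS, *Cldn6* at -0.80 (edgeR adjusted p = 0.0171) and *Jam3* at 0.35 (adjusted p = 0.00551), and 17 members had an unadjusted p under 0.05. Of all tested genes 332, or 2.10%, passed there, so calls fell across all genes and not in the members alone. *Cldn4* was then at -0.42 (adjusted p = 0.111), *Cldn3* at -0.50 (adjusted p = 0.0794) and *Cldn7* at -0.38 (adjusted p = 0.0796). With the no-gene share as a covariate the same 2 members passed, at -0.76 and 0.33, and 89 of all 15644 genes did, or 0.569%. The falls of 7 members were over 1.5 times smaller with this covariate and did not pass, at -0.42 for *Cldn3*, -0.33 for *Cldn4*, -0.28 for *Cldn7*, -0.39 for *Cldn23*, -0.13 for *F11r*, -0.10 for *Cldn16* and -0.12 for *Pard6b*, with edgeR adjusted p from 0.124 (*Cldn3*) to 0.471 (*Cldn16*). *F11r*, *Cldn16* and *Pard6b* were at -0.16, -0.16 and -0.14 without the 4 libraries. *Cldn23* was at -0.41 there (edgeR adjusted p = 0.151). *Tjp3*, at -0.55 with all libraries and no covariate, was at -0.43 without the 4 libraries (edgeR adjusted p = 0.0859). With the covariate *Tjp3* was at -0.38 (0.135). Other calls were lost while the difference without the 4 libraries stayed near its size. Without the 4 libraries *Cldn9* was at -0.70 (edgeR adjusted p = 0.0975), *Cgn* at -0.30 (0.0664), *Cldn11* at 0.60 (0.0664) and *Cldn10* at 0.34 (0.0907), and with the covariate they were at -0.54, -0.27, 0.59 and 0.29.

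Within library sets 1, 2 and 3, with 3 or 4 mice per group, 0, 9 and 0 members passed by edgeR, beside 0.343%, 25.5% and 0% of all tested genes. At an unadjusted p under 0.05 there were 15, 12 and 12 members and 3421, 6361 and 2826 of all genes. The log2 fold changes in sets 1, 2 and 3 were -0.63, -0.96 and -0.62 for *Cldn4*, -0.81, -0.97 and -0.82 for *Cldn6*, 0.41, 0.29 and 0.33 for *Jam3*, and 0.46, -0.23 and 0.39 for *Cldn2*, whose direction differed in set 2. Whether what sets the no-gene share also lowered these levels was not tested.

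Markers of the segments moved in the same comparison, in which 15.3% of all tested genes were higher and 18.5% lower. Of the principal cell markers 3 of 5 were lower after treatment, with a median log2 fold change of -0.52, and 4 of 4 urothelium markers were lower, with a median of -0.71, beside the falls in *Cldn3*, *Cldn4* and *Cldn7*. Within library set 1, which held none of the 4 libraries with the high no-gene share, *Upk2* was at 0.29, *Upk1b* at -0.06 and *Aqp3* at 0.08, while in sets 2 and 3 all 9 of these markers were below 0. Relative to principal cell markers *Cldn4* was at 0.62 ± 0.55 in PBS and 0.53 ± 0.44 in RGLS4326 kidneys (log2, SD, n = 11 in each), and *Cldn7* at -0.91 ± 0.45 and -0.85 ± 0.41, so on this scale both differed by less than the spread between mice. Of the proximal tubule markers 5 of 6 were higher, with a median of 0.64, and *Cldn2* relative to their mean was 0.94 ± 0.38 in PBS and 0.45 ± 0.18 in RGLS4326 kidneys, with overlapping ranges.

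For other claudins the distance to the segment's markers changed. Of the thick ascending limb markers 3 of 5 were higher, with a median of 0.31, while *Cldn16* fell by 0.27. *Cldn16* minus these markers was -3.41 ± 0.63 in PBS and -4.18 ± 0.20 in RGLS4326 kidneys, and *Cldn19* minus them was -1.42 ± 0.46 and -2.08 ± 0.14. *Cldn8* minus the principal cell markers was -1.37 ± 0.58 in PBS and -0.59 ± 0.57 in RGLS4326 kidneys. In each of these the ranges of both groups overlapped. Of the markers of all tubule epithelium 4 of 5 were lower, with a median of -0.39, and of the 4 injured tubule markers 1 was, *Lcn2* (lipocalin 2), by 0.80. Beside the rise in *Jam3*, 4 of 5 endothelium markers were higher, with a median of 0.20, and 4 of 5 podocyte markers, with a median of 0.27. The members *Esam* and *Cldn5*, of endothelial cells, were at 0.03 and 0.04 (edgeR adjusted p = 0.701 and 0.772) and did not pass. The endothelium markers summed to 340 to 489 CPM in PBS and 424 to 528 in RGLS4326 mice, and the podocyte markers to 354 to 459 and 420 to 499. The part of all these markers in the claudin differences was not tested.

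Of the 7 members with a miR-17 seed match 1 passed in RGLS4326 vs PBS, *Pard6b*, which was lower, beside 33.8% of all tested genes. The log2 fold change in RGLS4326 vs PBS was 0.22 for *Jam2* and 0.04 for *Magi3*, whose matches are 8mers, and 0.21 for *Cldn2*, 0.19 for *Cldn1*, 0.04 for *Cldn5*, 0.01 for *Magi1* and -0.23 for *Pard6b* among those with 7-base matches. The values of the other 6 did not pass, so no direction was shown for them. *Jam2* was at 22.2 to 45.7 CPM in PBS mice and at 32.2 to 48.4 in RGLS4326 mice, with an adjusted p of 0.0798. *Jam3* and *Cldn6*, the members that passed both checks on the no-gene share, had no seed match in the searched 3′UTR.

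Of the 27 tested genes in the list of further tight junction genes 12 passed in RGLS4326 vs PBS, 1 higher (*Mpdz*, a scaffold with many PDZ domains, at 0.31) and 11 lower, beside 33.8% of all tested genes, 15.3% higher and 18.5% lower, and none reached a difference of 0.5. With the no-gene share as a covariate, and without RGLS4326 mice 5, 6, 7 and 11, 0 of them passed by edgeR, with 7 and 8 at an unadjusted p under 0.05, beside 0.569% and 2.10% of all tested genes that passed.

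Treated kidneys still differed from UNT kidneys in most members. In RGLS4326 vs UNT 29 of 32 passed, 21 higher and 8 lower (of which *Jam3* and *Esam* turned to 0.01 and 0.05 under scaling by library totals), beside 77.7% of all tested genes, 40.8% higher and 36.9% lower, and 19 members had groups that did not overlap, beside 36.7% of all tested genes. Scaling by library totals gave 24 higher and 6 lower members, with the share of higher calls among all called genes at 72.5% in place of 52.5%. *Cldn4* was higher than in UNT kidneys by 3.20 (standard error 0.17, edgeR adjusted p = 1.29e-18), *Cldn3* by 2.27, *Cldn7* by 1.84 and *Cldn1* by 1.88, and *Cldn10* was lower by 1.42 (standard error 0.11, edgeR adjusted p = 1.78e-14) and *Cldn2* by 0.76. The members that did not pass were *Cldn8* at -0.05, *Cldn19* at 0.21 and *Pard3* at 0.06.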

How the data were processed

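Whole-kidney polyadenylated RNA of 34 mice was sequenced by the authors from stranded mRNA libraries. Their processing notes name Trim Galore, STAR, SAMtools 1.1, HTSeq 0.6.1 and the build GRCm38; the gene annotation and whether counting used strand were not given in the sources used here. The authors deposited unnormalized counts of reads for each gene symbol, with a table for every mouse. Groups were taken from the sample labels. Genes with low counts were removed (filterByExpr), and 15644 genes in all 34 libraries were fitted by TMM scaling and edgeR 4.0.16 (quasi-likelihood test, R 4.3.3) with 3 groups and no covariate, after a test on simulated counts. P-values were adjusted by Benjamini-Hochberg over all genes, and genes were called under 0.05. Coordinates, exon lengths and overlaps came from GENCODE M21. Marker scores used log2(CPM + 1).

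Members and lists were chosen with earlier results of these data known. Members were described in full when called with an absolute log2 fold change of 1 or more against UNT, or of 0.5 or more in RGLS4326 vs PBS, or when the claudin has a listed nephron segment, and the further tight junction genes were named as the 3 largest rises and falls, of which 1 is not reported here. Alternatives were DESeq2 1.42.0, RLE size factors, library totals, no filter on low counts, only the compared groups, library set, the share of reads in no gene, and the replicate block. Leaving out PBS mouse 9 and RGLS4326 mice 5, 6, 7 and 11 was chosen after the data were seen. Depth was 17603122 to 54981992 reads in genes, so counting error was small beside the spread between mice for most members, and larger for those with few reads in some libraries (*Cldn6*, *Cldn9*, *Cldn11*, *Cldn14*, *Cldn18* and *Cldn23*). Rows of the tables that name no gene were kept out of library sizes, and their shares are given with the results.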

Additional observations from a re-analysis of the deposited data

How the results depend on the processing

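Counts of called members in PBS vs UNT stayed at 23 to 32 over all alternatives and those in RGLS4326 vs UNT at 23 to 31, with 31 and 29 as reported. In RGLS4326 vs PBS 15 members were called, and 13 to 15 under the other scalings, DESeq2 (15), no filter on low counts, only the groups compared and library set as a factor. This count fell to 2 with the share of reads assigned to no gene (no-gene share) as a covariate, to 0, 9 and 0 within library sets 1, 2 and 3, and to 2 without RGLS4326 mice 5, 6, 7 and 11, settings that in part hold fewer mice. At an unadjusted p under 0.05 the counts were 15, 15, 12, 12 and 17. The further tight junction genes went from 12 called to 0, 0, 5, 0 and 0 in the same order, with 7, 10, 12, 3 and 8 at an unadjusted p under 0.05. Calls fell over all genes too, from 5280 to 89, 54, 4065, 0 and 332, with 3197, 3421, 6361, 2826 and 4121 at an unadjusted p under 0.05. The cause was not tested.

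With the replicate number as a block (replicate block), 31, 15 and 30 members were called in the 3 comparisons and 23 and 10 further tight junction genes, with *Marveld2* lost (edgeR adjusted p = 0.0529) and *Marveld3* gained (0.037) in RGLS4326 vs PBS. Same-numbered mice did not deviate together (correlations of -0.262 to 0.307, -0.214 to 0.412 and -0.329 to 0.212 over 11 pairs, with 0, 1 and 1 mice closest to their own number), so the numbers were not taken to pair mice.

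Some directions turned. In PBS vs UNT, library totals gave 0.04 for *Cldn8* and 0.01 for *Esam*, and *Pard3* was -0.01 without the filter, -0.14 with the no-gene share and -0.11 in set 3. In RGLS4326 vs UNT, library totals gave 0.26 for *Cldn8*, 0.01 for *Jam3* and 0.05 for *Esam*, the no-gene share gave 0.03 for *Cldn8* and -0.04 for *Pard3*, and the sets gave 0.06 for *Cldn8* (set 1), -0.03, -0.01 and -0.06 for *Cldn5*, *Cldn16* and *Pard3* (set 2) and -0.03 for *Pard3* (set 3). In RGLS4326 vs PBS, the no-gene share gave 0.00, 0.05, -0.02 and -0.01 for *Ocln*, *Cgnl1*, *Magi1* and *Magi3*. Set 1 gave 0.05, 0.08, -0.06 and -0.12 for these genes, and leaving out RGLS4326 mice 5, 6, 7 and 11 gave 0.03, 0.08 and -0.01 for the first 3. Set 2 gave -0.23, -0.17, -0.19, -0.20 and -0.14 for *Cldn2*, *Cldn5*, *Cldn15*, *Pard3* (edgeR adjusted p = 0.0407) and *Esam*, and set 3 gave -0.00 for *Cldn5* and 0.31 for *Cldn14*. *Cldn14* was 0.01 with library set as a factor and 0.05 without PBS mouse 9, without which *Magi1* and *Magi3* were -0.01 and -0.01.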
